A study of Homo sapiens with 24 samples.

Results

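The day by rotenone interaction asked, for every gene, whether the response to 100 nM rotenone measured right after the exposure differed from the response left after wash-out and 7 days of recovery. It was formed as a difference of differences, rotenone minus DMSO on day 15 less rotenone minus DMSO on day 8, from 12 of the 24 arrays of the series, chosen by their sample titles, with 3 arrays in each of 4 groups. A positive interaction means that the rotenone response was higher on day 15 than on day 8, and a negative one that it was lower. Genes called on day 8 were then divided into those back at the control level on day 15 and those on the opposite side of it.

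LUHMES is an established human mesencephalic cell line, held in proliferation by a tetracycline-controlled v-myc and differentiated here as floating 3D aggregates into dopaminergic-like neurons. All 12 samples were differentiated in the same medium with cAMP, GDNF and tetracycline. On day 7 of differentiation they received either 100 nM rotenone in DMSO or the same amount of DMSO alone, for 24 h. The 3 day 8 DMSO and 3 day 8 rotenone samples were harvested at the end of the exposure, and the 3 day 15 DMSO and 3 day 15 rotenone samples 7 days after wash-out. All are samples of this single line, and the labels do not say that replicates came from separate cultures, so p-values measure only the spread between these samples, which may be technical. RNA came from whole aggregates, so fewer cells of a type and less RNA per cell cannot be told apart.

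Rotenone blocks complex I, the entry point of NADH electrons into the mitochondrial respiratory chain. Cells with a blocked chain draw more of their energy from glycolysis, and genes that sense glucose intermediates, amino acid supply, oxygen and sterols respond on the scale of hours. Dopaminergic neurons are the cell type in which rotenone toxicity is most studied, because rotenone models parts of Parkinson's disease.

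Each slide held 1 array of each group, and slide 1 was a repeated slide that the labels name as a batch, so slide was kept as a block and slide values are given beside the main results. Between 48.1% and 72.5% of spots were well above background on the 12 arrays, with 64.4% or more on slide 1 and 60.3% or less on slides 2 and 3. Day 15 rotenone replicate 3 stood apart, where the SD of residuals from the fit was 0.39 (log2), and between 0.19 and 0.27 on the other 11 arrays. For day 15 DMSO replicate 1 the stored scan name mentions 12 h but not DMSO, so its group rests on its label, and results that turn on it are also given without it. Neuron markers were measured on all 12 arrays for 8 of 8 genes, and dopaminergic markers for 5 of 7. No astrocyte marker of 5 was well above background on all 3 arrays of any group but day 15 rotenone, where 1 was, and GFAP, SOX2, COL3A1 and PECAM1 were measured in no group. No marker of dopaminergic neurons, cycling cells, progenitors, astrocytes, oligodendrocytes, microglia, mesenchymal or endothelial cells was called in the interaction by limma.

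Of 21324 genes tested, 439 were called in the interaction at a Benjamini-Hochberg adjusted p under 0.05 and a difference over 1.5-fold, which is 2.06% of the genes tested. In 209 genes (0.980%) the response was higher on day 15 and in 230 (1.08%) it was lower. The alpha-arrestin genes TXNIP and ARRDC4, the serine synthesis enzyme PHGDH and the protocadherin PCDH8 were among those that fell on day 8 and were level with control on day 15. The fatty acid binding protein FABP3, the bradykinin receptor BDKRB2 and the matrix protein TNC were among those that rose on day 8 and did not stay up. The day 8 response was the larger of the pair in 410 of the 439 genes, a count that describes genes chosen with these same arrays. All 4 groups were measured well above background in 415 of the 439 genes (94.5%), against 61.3% of all genes. Within slides the sign was the same on all 3 slides for 438 of the 439 genes, against 37.3% of all genes, although the same arrays chose these genes.

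This count rests on the spread shared by all 24 arrays. With a spread estimated from the 12 compared arrays alone, 24 genes were called, on slides 2 and 3 alone 42, and without the slide block or any batch correction 87. Leaving out day 8 rotenone replicate 1 left 289 genes, and leaving out any other single array left between 315 and 504.

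**Figure D1:**
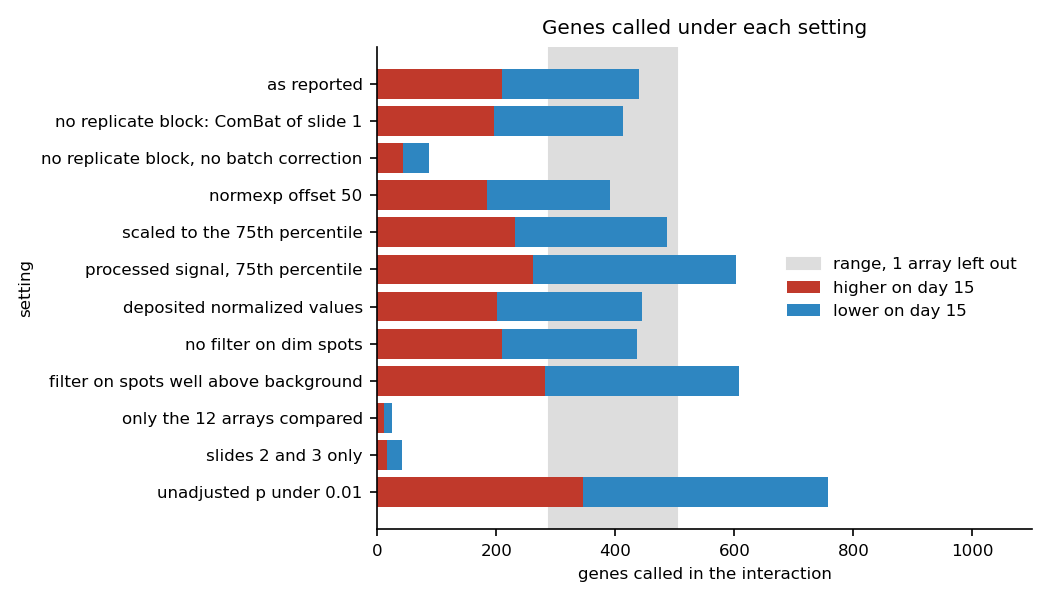
Number of genes called in the interaction (x axis) under the reported setting and 11 alternatives (y axis), split into genes whose response was higher (red) or lower (blue) on day 15. The grey band spans the counts with 1 array left out, 289 to 504. The bars for the 12 compared arrays alone and for slides 2 and 3 alone end at 24 and 42.

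TXNIP carried the largest positive interaction. It encodes an alpha-arrestin that binds thioredoxin and holds back glucose uptake, and its promoter is a textbook target of the glucose-sensing factor pair MondoA or ChREBP with MLX. On the log2 scale it read 12.65, 12.42 and 12.19 on the 3 day 8 DMSO arrays and 9.71, 10.10 and 9.79 after rotenone. On day 15 it read 12.04, 12.56 and 12.07 with DMSO and 12.12, 12.14 and 11.96 with rotenone. The day 8 groups lay far apart and the day 15 groups overlapped. The day 8 change was -2.56 ± 0.14 (SE, n = 3 arrays a group), a 5.88-fold fall, and the day 15 change was -0.15, with a 95% interval from -0.44 to 0.15. The interaction was 2.41 ± 0.20 (limma adjusted p = 7.12e-06), and it was 3.03, 1.90 and 2.30 within slides 1, 2 and 3.

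ARRDC4 encodes another glucose-regulated alpha-arrestin. It read 7.75, 7.94 and 7.78 with DMSO on day 8 and 5.23, 6.04 and 5.85 with rotenone, then 7.32, 7.83 and 7.69 with DMSO on day 15 and 7.31, 7.65 and 7.60 with rotenone. Its day 8 fall of 4.33-fold left no overlap, whereas the day 15 values interleaved. The interaction was 2.02 ± 0.20 (limma adjusted p = 8.08e-05). Of the 6 alpha-arrestins tested, these 2 were called, both higher in the interaction (0.980% of all genes). ARRDC1, ARRDC2, ARRDC3 and ARRDC5 had interactions of 0.00, 0.08, -0.75 and -0.19, none past the test.

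Promoter windows of both genes, 250 bases before to 50 after the transcription start (RefSeq, GRCh38.p14), are printed 5′ to 3′ on the gene's strand because the pair moved together. Capitals mark each match to CACGNG on either strand, the core of the carbohydrate response element, and overlapping matches run together.
TXNIP promoter, chr1:145996530-145996829, minus strand: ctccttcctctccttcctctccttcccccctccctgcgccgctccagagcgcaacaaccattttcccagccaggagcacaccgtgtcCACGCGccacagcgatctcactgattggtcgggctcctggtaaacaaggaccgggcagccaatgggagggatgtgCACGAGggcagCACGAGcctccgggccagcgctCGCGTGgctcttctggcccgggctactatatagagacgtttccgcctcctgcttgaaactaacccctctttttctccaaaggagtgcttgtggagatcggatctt
ARRDC4 promoter, chr15:97960453-97960752, plus strand: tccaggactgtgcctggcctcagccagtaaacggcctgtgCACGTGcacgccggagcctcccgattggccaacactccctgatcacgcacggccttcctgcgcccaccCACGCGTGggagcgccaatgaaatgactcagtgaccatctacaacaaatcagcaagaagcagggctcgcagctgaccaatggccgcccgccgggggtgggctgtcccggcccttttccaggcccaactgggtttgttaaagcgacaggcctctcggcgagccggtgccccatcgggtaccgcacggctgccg
The TXNIP window held 4 matches, at positions -163, -88, -77 and -55, counted from the transcription start, and the ARRDC4 window held 3, at -210, -142 and -140. In TXNIP the matches at -88 and -77 form a pair on the same strand with 5 bases between them, an arrangement found in 20 of 35116 windows (0.057%). The ARRDC4 window holds no such pair. CACGNG lies in 30.5% of windows, and in a window of 34.3% of all genes with one. It lay in a window of 4 of the 5 alpha-arrestins with one (80%). The share was also high in the dopaminergic identity list (70%) and the cell cycle list (59.3%), where no gene was called in the interaction. A second RefSeq start of TXNIP has a window with no CACGNG. A match describes letters in these windows and not a bound site.

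**Figure D2:**
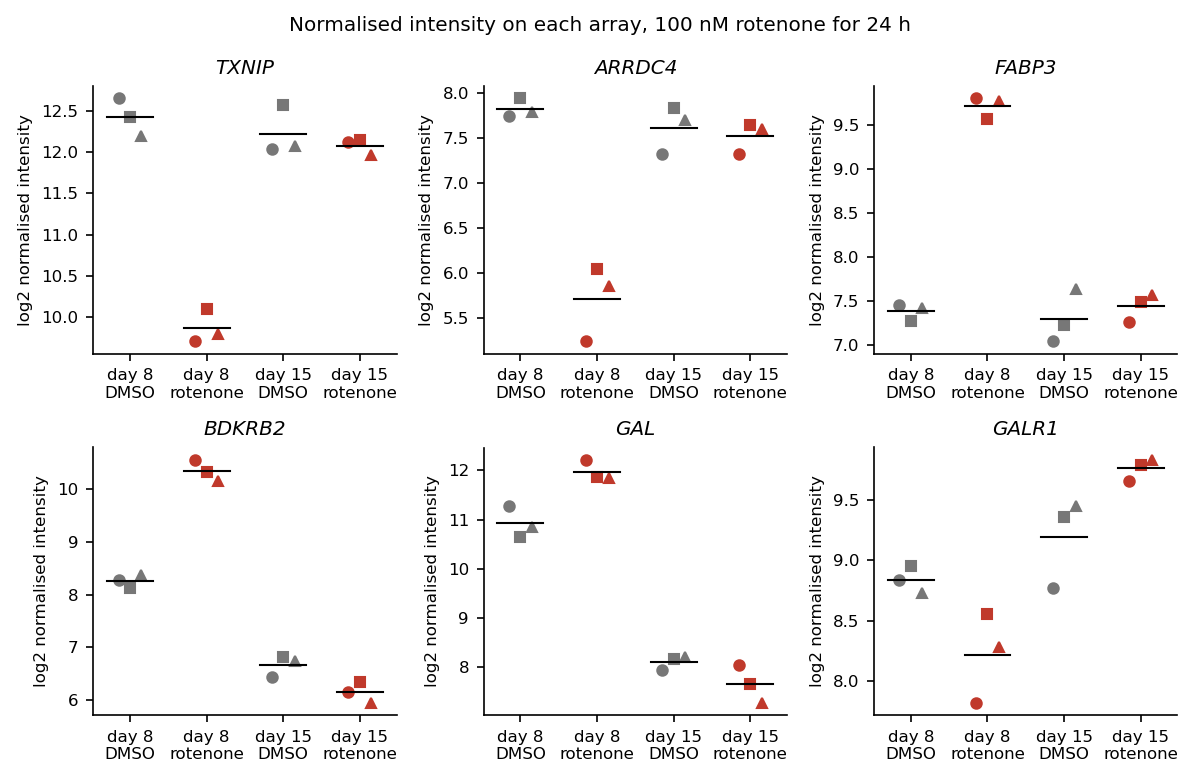
Normalised intensity on the log2 scale (y axis) of 6 genes on each of the 12 arrays, by group (x axis), with grey for DMSO, red for rotenone, circles, squares and triangles for replicates 1, 2 and 3, and a black bar for the group mean. TXNIP, ARRDC4 and FABP3 are apart on day 8 and overlap on day 15, while BDKRB2 and GALR1 are apart on both days, on opposite sides.

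The other large positive interactions belonged to genes of varied roles. SPMIP6, a protein of sperm microtubules, had an interaction of 2.01 ± 0.25 (limma adjusted p = 0.000607), the zinc-sensing receptor GPR39 one of 1.81 ± 0.26 (adjusted p = 0.00152), LRRC66 one of 1.56 ± 0.28 (adjusted p = 0.00657) and the serotonin receptor HTR5A one of 1.55 ± 0.34 (adjusted p = 0.0193). The call of HTR5A was lost without day 8 rotenone replicate 1 (adjusted p = 0.0648). Of 23 alternative settings, HTR5A kept its call in 19, LRRC66 in 20, and SPMIP6 and GPR39 in 22 each.

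PCDH8, an activity-regulated protocadherin at synapses, read 8.13, 8.75 and 8.46 with DMSO on day 8, and 6.51, 7.25 and 7.02 with rotenone. On day 15 the values were 9.74, 9.65 and 9.90 with DMSO, and 9.62, 10.11 and 10.18 with rotenone. The interaction was 1.73 ± 0.19 (limma adjusted p = 0.000218), with the day 15 groups overlapping at a higher level than on day 8.

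H1-10-AS1, a transcript antisense to a linker histone gene, had an interaction of like size in which the control arm moved. With DMSO it read 8.63, 9.17 and 9.20 on day 8 and 6.50, 6.92 and 7.01 on day 15, and with rotenone 6.83, 7.12 and 7.23 on day 8 and 6.37, 6.86 and 7.11 on day 15. Its interaction was 1.91 ± 0.15 (limma adjusted p = 7.12e-06), of which the rotenone arm moved by -0.28 from day 8 to day 15 and the DMSO arm by -2.19. The rotenone samples were already near the day 15 control level on day 8.

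The movement of the arms from day 8 to day 15 was counted in this way for all 439 genes. The rotenone arm moved more in 322 and the DMSO arm in 117, and in 288 the DMSO arm stayed within 1.5-fold. Without day 8 rotenone replicate 1, the rotenone arm moved more in 213 of 289. For HTR5A the DMSO arm moved by -1.45 and the rotenone arm by 0.10, while for TXNIP and FABP3 the DMSO arm moved by -0.20 and -0.08 and the rotenone arm by 2.21 and -2.28. These counts describe genes chosen with the same arrays.

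FABP3, which carries fatty acids in the cytoplasm, led the genes that rose and came back. It read 7.46, 7.28 and 7.42 with DMSO on day 8 and 9.81, 9.57 and 9.77 with rotenone, a 5.03-fold rise. On day 15 it read 7.04, 7.23 and 7.63 with DMSO and 7.26, 7.49 and 7.57 with rotenone, and those groups overlapped. The interaction was -2.19 ± 0.26 (limma adjusted p = 0.000300), and the day 15 interval ran from -0.24 to 0.52. CACNG1, a calcium channel subunit, had an interaction of -1.76 ± 0.30 (adjusted p = 0.00501), but it was well above background on 2 of 3 day 15 DMSO arrays and 1 of 3 day 15 rotenone arrays.

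TNC, the matrix protein tenascin C, read 8.46, 8.14 and 8.77 with DMSO on day 8 and 10.60, 10.39 and 10.22 with rotenone. The day 15 values were 6.10, 6.17 and 6.29 with DMSO and 5.87, 6.48 and 4.76 with rotenone, the last value from the array that stood apart. Its interaction was -2.43 ± 0.43 (limma adjusted p = 0.0053), and its day 15 change of -0.48 had an interval from -1.12 to 0.15, too wide to place it as returned or opposite.

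On day 8, 733 genes were called (3.44% of genes tested), 314 higher with rotenone (1.47%) and 419 lower (1.96%). No gene was called on day 15 (0.00%) by limma, where the smallest adjusted p was 0.208, and 1752 genes (8.22%) had an unadjusted p under 0.05. Leaving out day 15 rotenone replicate 1 or 2 gave 17 or 7 day 15 calls, and leaving out replicate 3 gave 0. The count was 2 with a normexp offset of 50 and 3 from processed signals. The day 8 and day 15 contrasts share no array, so the day 15 change of a gene called on day 8 is estimated apart from its selection. Its standard error is not, since both contrasts use the spread of all 24 arrays, and a small spread favours a day 8 call. The classes below rest on day 15 intervals, so their shares beside those of all genes are not independent of the day 8 selection.

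Of the 733 genes, 514 (70.1%) had returned by day 15, meaning that the 95% interval of the day 15 change held 0 and lay within 1.5-fold either way, a condition met by 53.5% of all genes, dim genes with wide intervals included. The order turned in other settings: 67.2% of the day 8 genes and 70.0% of all genes met it among spots well above background, and 81.7% and 88.0% with a normexp offset of 50. In the reported setting the condition was met by 292 of the 419 genes that had fallen (69.7%) and 222 of the 314 that had risen (70.7%). The day 8 median was -0.75 for genes that fell and 0.74 for genes that rose, and their day 15 medians were -0.06 and 0.01, where the median of all genes was -0.03. A further 120 genes (16.4%) had an interval that held 0 but reached past 1.5-fold, so that they could not be placed.

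In 75 genes (10.2%) the day 15 interval excluded 0 on the same side as on day 8. Of the genes that had fallen, 52 (12.4%) were still lower, where 5.70% of all genes had an interval below 0. Of those that had risen, 23 (7.32%) were still higher, where 2.51% of all genes had one above 0. No day 15 change among them passed the adjusted test. The size of this group turned on the day 15 arrays of both kinds. It held 40 genes without rotenone replicate 3 and 117 without rotenone replicate 2. Without DMSO replicate 1, 2 or 3 it held 76, 55 or 47.

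LCP1, an actin bundling protein, had the smallest day 15 p of those still lower. It read 6.60, 6.78 and 6.46 with DMSO on day 8, and 5.40, 5.94 and 5.36 with rotenone. By day 15 LCP1 read 7.72, 7.98 and 7.91 with DMSO, and 7.03, 7.22 and 6.79 with rotenone, with no overlap on either day. Its interaction was 0.19 ± 0.20 (limma adjusted p = 0.713), and its sign turned to -0.06 with a normexp offset of 50.

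GDF15, a stress-induced cytokine, was among those still higher. It read 8.73, 8.54 and 8.65 with DMSO on day 8, and 10.03, 9.35 and 9.31 with rotenone. By day 15 GDF15 read 8.30, 7.92 and 8.32 with DMSO, and 9.51, 8.36 and 9.30 with rotenone, again without overlap. The interaction of -0.05 ± 0.35 (limma adjusted p = 0.969) has an interval from -0.78 to 0.69, which reaches past 1.5-fold in either direction. Skeletal alpha-actin ACTA1 had the largest remaining rise, 1.40 on day 15 after 2.24 on day 8, with an interaction of -0.84 ± 0.77 (adjusted p = 0.674). PPP1R27, CD200, FRMPD2 and ZFHX4-AS1 also lay on the same side on both days, with interactions between -0.37 and 0.37, though ZFHX4-AS1 was well above background on no day 15 array. CCK and GRXCR1 were not called on day 8 or in the interaction, and only 1 array of each day 8 group measured CCK clearly above background. These 9 genes were chosen from earlier results of the same arrays.

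**Figure D3:**
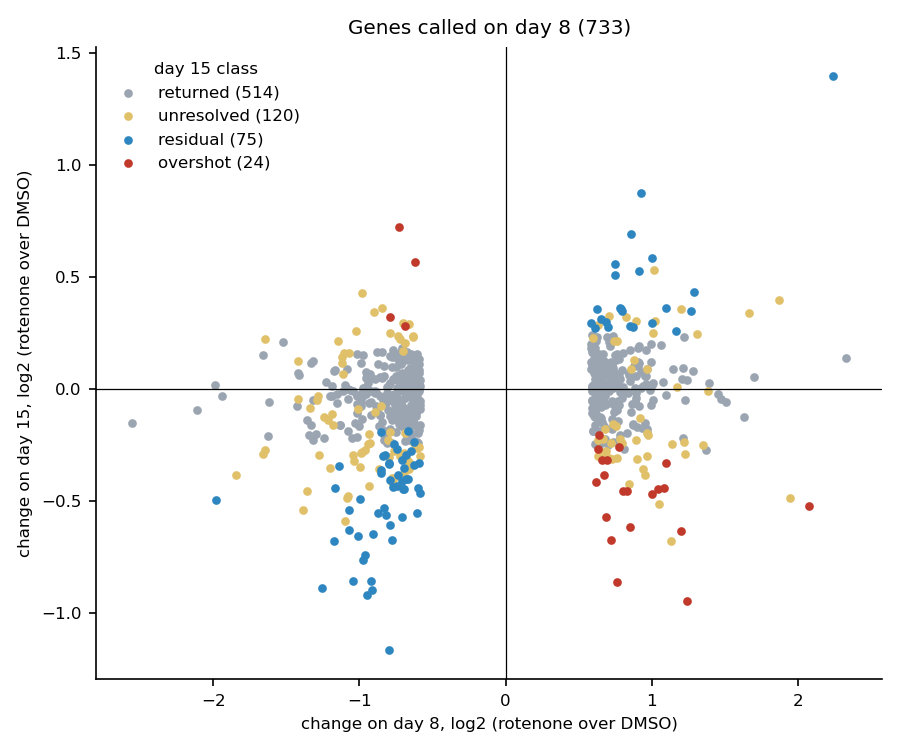
Change with rotenone on day 8 (x axis) and on day 15 (y axis), both log2 over DMSO, for the 733 genes called on day 8, coloured by their day 15 class. The 514 returned genes lie along the zero line of day 15, and the 24 in red lie across it, 20 of them at the lower right.

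The day 15 interval excluded 0 on the opposite side in 24 of the 733 genes (3.27%). Of the 314 genes that had risen, 20 were lower on day 15 (6.37%, against 5.70% of all genes with an interval below 0), and of the 419 that had fallen, 4 were higher (0.955%, against 2.51%). The first share was near its background and the second below it. None of the 24 had a day 15 adjusted p under 0.05 in limma, where the smallest was 0.210, and 6 lay past 1.5-fold on day 15. All 24 were called in the interaction, a count that their opposite signs favour. The day 15 rotenone and DMSO arrays did not overlap in 9 of them (3.99% of all genes), a count that choosing genes by the day 15 interval on these arrays raises.

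The count depended on the day 15 arrays of both kinds. Leaving out rotenone replicate 3 gave 12 genes, 9 of them among the 24, and leaving out rotenone replicate 1 gave 47. Leaving out day 15 DMSO replicate 1 gave 31, and leaving out DMSO replicate 2 or 3 gave 16 each. The direction of the background turned with scaling: 5.70% of all genes were below 0 and 2.51% above on day 15 after quantile normalization, and 2.47% and 5.95% when each array was scaled to its 75th percentile, where 7 of the 24 genes stayed in the class.

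BDKRB2, the constitutive bradykinin receptor, had the largest negative interaction of all and crossed to the opposite side. It read 8.28, 8.12 and 8.37 with DMSO on day 8 and 10.55, 10.31 and 10.14 with rotenone, a 4.22-fold rise. On day 15 it read 6.44, 6.83 and 6.75 with DMSO and 6.15, 6.34 and 5.95 with rotenone, so the groups did not overlap on either day and their order was exchanged. The interaction was -2.60 ± 0.19 (limma adjusted p = 4.51e-06), with -2.56, -2.68 and -2.57 within slides 1, 2 and 3. The day 15 change of -0.52 ± 0.13 had an adjusted p of 0.422, and it was -0.44 with an interval from -0.76 to -0.13 without rotenone replicate 3. The DMSO arm itself moved by -1.59 from day 8 to day 15, and the rotenone arm by -4.19.

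The neuropeptide galanin and one of its receptors were both among the 24, with day 15 changes that did not pass the adjusted test (limma adjusted p = 0.579 for GAL and 0.336 for GALR1). GAL read 11.28, 10.65 and 10.86 with DMSO on day 8, and 12.21, 11.86 and 11.84 with rotenone. By day 15 GAL read 7.95, 8.18 and 8.21 with DMSO, and 8.05, 7.67 and 7.28 with rotenone, groups that overlapped through replicate 1. The interaction of GAL was -1.48 ± 0.24 (limma adjusted p = 0.00335), but its day 15 change of -0.44 became -0.26 without rotenone replicate 3, with an interval from -0.63 to 0.11 that held 0.

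GALR1, the galanin receptor, read 8.83, 8.95 and 8.73 with DMSO on day 8, and 7.82, 8.56 and 8.28 with rotenone. On day 15 it read 8.77, 9.36 and 9.45 with DMSO, and 9.66, 9.79 and 9.83 with rotenone, with no overlap on either day. The interaction was 1.18 ± 0.19 (limma adjusted p = 0.00246), and the day 15 change of 0.57 was 0.56 without rotenone replicate 3 and 0.42 without DMSO replicate 1, both with intervals above 0.

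The other genes that fell and then lay higher were ESPNL, EXTL1 and CAPN8. ESPNL, an espin-like actin bundler measured by 2 probes with interactions of 0.81 and 2.10, read 5.24, 3.97 and 4.05 with DMSO on day 15 and 5.56, 4.96 and 4.92 with rotenone, overlapping across slides although each rotenone array was above the DMSO array of its slide. Its interaction of 1.45 ± 0.20 (limma adjusted p = 0.000935) was not called without the slide block (adjusted p = 0.621). EXTL1, a heparan sulfate glycosyltransferase, had day 8 and day 15 changes of -0.69 and 0.28. CAPN8, a calpain of the stomach, had changes of -0.79 and 0.32, and its day 15 interval held 0 without rotenone replicate 3.

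Among the 20 genes that rose and then lay lower, EGFL6, CILP2, KCNIP4 and MESP1 joined BDKRB2 as those with the smallest day 15 p. EGFL6, a secreted protein with EGF-like repeats, read 5.27, 6.0 and 5.82 with DMSO on day 15 and 4.87, 5.13 and 4.26 with rotenone, the last not well above background. Its day 8 and day 15 changes were 1.24 and -0.94, and the latter was -0.67 without rotenone replicate 3. KCNIP4, which modulates Kv4 potassium channels, read 6.08, 6.47 and 6.43 with DMSO and 5.76, 5.98 and 4.66 with rotenone on day 15, and its day 15 change of -0.86 was -0.42 without replicate 3.

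CILP2, a cartilage matrix protein, had changes of 0.72 and -0.67, and the mesoderm transcription factor MESP1 had 0.63 and -0.27. Both kept a day 15 interval below 0 without replicate 3, at -0.50 and -0.25. CDC42EP1, an effector of the GTPase CDC42, and the thrombospondin THBS4 did not. Their day 15 changes of -0.63 and -0.33 became -0.19 and -0.22, with intervals that held 0.

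**Figure D4:**
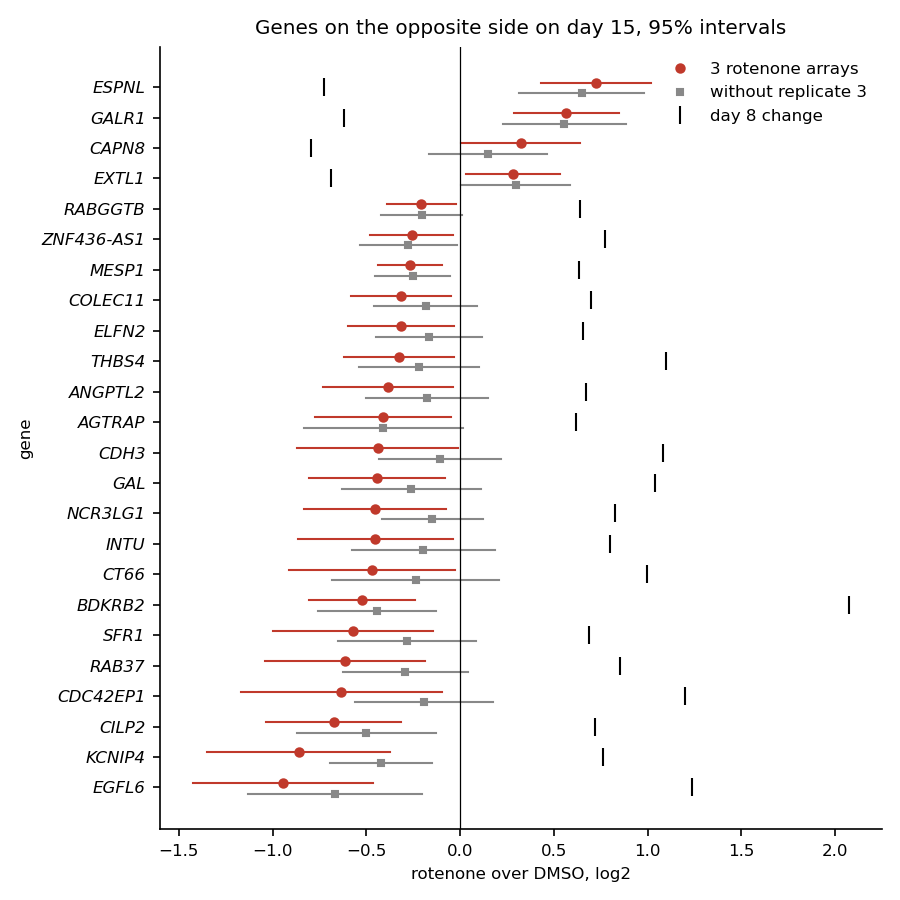
Change with rotenone over DMSO (x axis, log2) for the 24 genes on the opposite side on day 15 (y axis). Red points and lines give the day 15 change and its 95% interval with all 3 rotenone arrays, grey the same without replicate 3, and black ticks the day 8 change. BDKRB2, EGFL6, ESPNL and GALR1 keep an interval clear of 0 in both, and CDC42EP1 and GAL do not.

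In 29 of the 439 interaction genes the day 15 response was the larger, lower in 25 and higher in 4. LMO2, a transcriptional adaptor, read 6.69, 6.84 and 7.14 with DMSO on day 15 and 7.18, 7.21 and 7.68 with rotenone, after values that overlapped on day 8. Its changes were -0.46 and 0.46, and its interaction was 0.92 ± 0.17 (limma adjusted p = 0.00774). GNRH1, the gonadotropin-releasing hormone precursor, had changes of -0.18 and 0.56 and an interaction of 0.74 ± 0.15 (adjusted p = 0.0137). IGIP and TSPEAR-AS2 had interactions of -0.67 ± 0.13 and -0.81 ± 0.16 (adjusted p = 0.0095 and 0.0121). Without day 15 rotenone replicate 3, 14 genes had the larger response on day 15, 11 of them among the 29, and without replicate 1 there were 96.

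PRR5-ARHGAP8 and ADGRG4 also had large negative interactions that turned on few arrays. PRR5-ARHGAP8, a read-through of neighbouring genes that shares sequence with both, had within-slide values of -0.42, -1.31 and -3.69, and its call was lost when any array was left out other than day 15 DMSO replicate 2 and the 3 day 15 rotenone arrays. ADGRG4, an adhesion receptor, was well above background on no day 8 DMSO array and 1 of 3 day 8 rotenone arrays, so no fold is given for it. Its call was lost without day 8 DMSO replicate 1 or 2, day 8 rotenone replicate 3 or day 15 DMSO replicate 3.

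Of the 439 genes, 326 were also called on day 8 and 113 were not. All 113 lay on opposite sides of 0 on the 2 days, which the fold thresholds of the 2 calls largely impose, and in 48 both changes had an unadjusted p under 0.05. P4HA2, a collagen prolyl hydroxylase induced by hypoxia, was one. It read 8.15, 8.48 and 7.86 with DMSO and 8.92, 8.79 and 8.50 with rotenone on day 8, then 8.07, 8.30 and 7.87 with DMSO and 7.80, 7.83 and 7.40 with rotenone on day 15. Its changes of 0.57 and -0.40 gave an interaction of -0.97 ± 0.15 (limma adjusted p = 0.00197). Conversely, 407 of the 733 day 8 genes were not called in the interaction, of which 307 were on the same side on day 15. Choosing genes without an interaction call on the same arrays favours that count. Of all genes, 56.2% were lower and 43.8% higher on day 15.

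Sterol synthesis genes moved together on day 8 and were level on day 15. The list holds enzymes of cholesterol synthesis with their regulators, and 23 of its 25 genes were above 0 on day 8 (92.0%, against 46.7% of all genes). The median was 0.41 on day 8 and 0.01 on day 15, and the median interaction was -0.40, against -0.01 over all genes. It was -0.34, -0.34 and -0.49 within slides 1, 2 and 3, and between -0.49 and -0.30 under the alternatives. In 24 of 25 genes the interaction was below 0 (96%, against 50.9% of all genes), the exception being TM7SF2 at 0.08. The list was chosen with results of these arrays known.

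By the test for single genes, ACAT2, DHCR7, FDFT1 and LSS rose on day 8 (1.47% of all genes), and all 4 returned. DHCR7 and LSS were called lower in the interaction (1.08% of all genes). DHCR7, the last enzyme of one branch of cholesterol synthesis, read 12.86, 12.98 and 13.11 with DMSO on day 8 and 13.59, 13.82 and 13.73 with rotenone. By day 15 DHCR7 read 12.67, 12.78 and 12.82 with DMSO and 12.66, 13.06 and 12.88 with rotenone, and the groups overlapped. Its interaction was -0.62 ± 0.11 (limma adjusted p = 0.00503), and it fell just inside 1.5-fold, at -0.56 and -0.58, without day 8 DMSO replicate 2 or day 15 DMSO replicate 1. LSS, lanosterol synthase, had an interaction of -0.71 ± 0.14 (adjusted p = 0.0124).

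A promoter window of DHCR7 is shown as the member of the list with the smallest interaction p, with capitals for CCAAT on either strand, the NF-Y box that accompanies sterol elements in many of these promoters.
DHCR7 promoter, chr11:71448344-71448643, minus strand: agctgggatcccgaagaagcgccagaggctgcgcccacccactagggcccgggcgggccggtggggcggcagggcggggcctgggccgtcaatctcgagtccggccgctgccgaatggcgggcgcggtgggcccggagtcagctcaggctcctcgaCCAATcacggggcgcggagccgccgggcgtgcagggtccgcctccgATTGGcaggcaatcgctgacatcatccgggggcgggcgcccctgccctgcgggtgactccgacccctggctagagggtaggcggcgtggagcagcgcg
CCAAT lay in a window of 16 of the 18 sterol genes with one in the table (88.9%), and of 39.7% of all genes with one. The share was also high in the cell cycle list, at 85.2%, where no gene was called, and 5 of 5 alpha-arrestins with a window held it. DHCR7 has 2 RefSeq starts in the table, and the window printed is that of the second, since the first holds no CCAAT.

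Actin genes under serum response factor had medians of 0.25 on day 8 and 0.05 on day 15. In 22 of 28 the interaction was below 0 (78.6%, against 50.9% of all genes). ACTA1, FHL2, TGFB1I1 and ZYX rose on day 8 (1.47% of all genes), of which TGFB1I1 and ZYX returned. TGFB1I1, a focal adhesion adaptor, was the one called in the interaction, at -0.83 ± 0.19 (limma adjusted p = 0.0231), where 1.08% of all genes were called lower. That call was lost when any of 5 arrays was left out, namely day 8 DMSO replicates 1 and 2, day 8 rotenone replicates 1 and 3 and day 15 DMSO replicate 1, with adjusted p from 0.0548 to 0.0677.

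Cell cycle genes were below 0 on day 8 in 31 of 33 cases, with a median of -0.24, leaving 6.06% above 0, against 46.7% of all genes. None of the 33 was called on day 8 or in the interaction by limma. Their median interaction of 0.08 was 0.52, 0.02 and 0.02 within slides 1, 2 and 3, and AURKB, with the smallest interaction p, was not well above background on any day 15 array. Of 6 cycling-cell markers 5 were tested and none was called. Their summed intensity ran from 282 to 531 with DMSO and from 209 to 393 with rotenone on day 8, and from 123 to 141 and from 73.4 to 158 on day 15. The part of cycling cells in the other results was not tested.

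Neuronal markers were below 0 on day 8 in 7 of 8 genes, leaving 12.5% above 0, against 46.7% of all genes. Their median was -0.27 on day 8 and 0.00 on day 15. MAP2, a dendritic microtubule protein, was the one called in the interaction, at 0.62 ± 0.13 (limma adjusted p = 0.0141). The summed level of the list, in normalised intensity, ran from 269287 to 334164 with DMSO and from 264585 to 300237 with rotenone on day 8, ranges that overlap, and from 309456 to 365668 and from 343391 to 353929 on day 15. Dopaminergic markers went the other way on day 8, with 5 of 7 above 0 (71.4%). Their median was 0.12 on day 8 and -0.14 on day 15, and their median interaction was -0.42. Their summed level ran from 1398 to 1436 with DMSO and from 1655 to 1795 with rotenone on day 8. On day 15 it ran from 557 to 574 and from 507 to 621. In the dopaminergic identity list 11 of 19 genes were above 0 on day 8 (57.9%). The part of neuronal RNA content in the interaction was not tested.

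**Figure D5:**
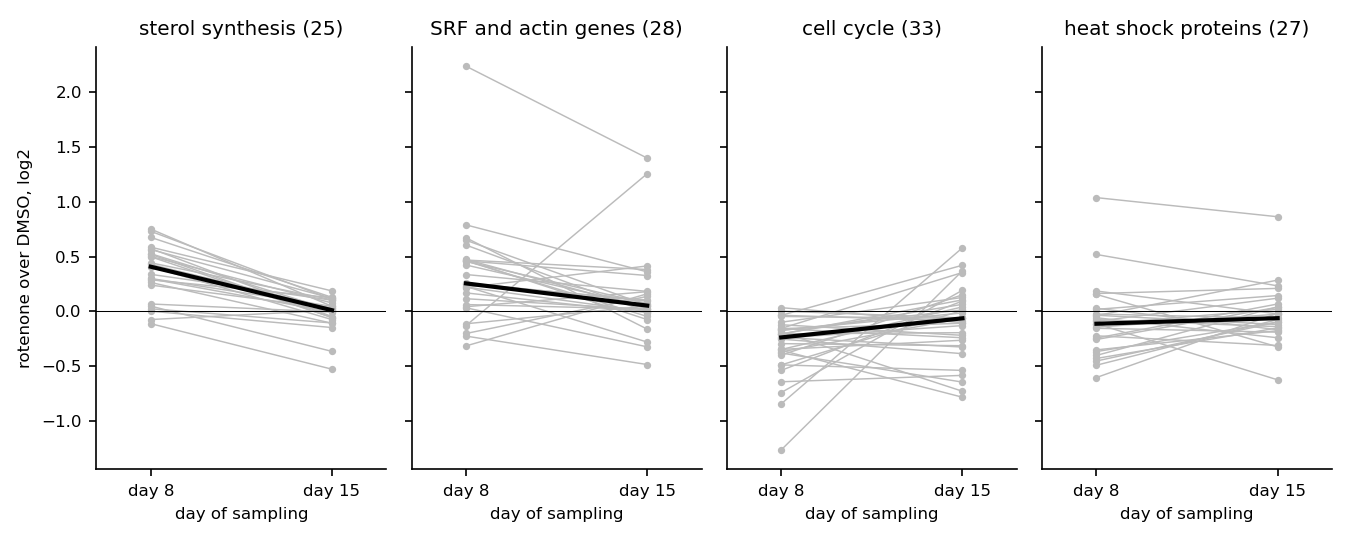
Change with rotenone over DMSO (y axis, log2) on day 8 and day 15 (x axis) for the sterol synthesis, serum response factor and actin, cell cycle and heat shock lists, 1 grey line a gene, with the list median in black. In sterol synthesis 23 of 25 lines start above 0, and the median goes from 0.41 to 0.01. In the cell cycle list 31 of 33 start below 0, at a median of -0.24.

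Of 25 neuropeptide and granin genes, GAL, SCG2, TRH and VGF rose on day 8 (1.47% of all genes), and GAL, SCG2 and VGF were called lower in the interaction (1.08% of all genes). SCG2 and VGF, cargo proteins of dense core vesicles, had interactions of -0.95 ± 0.21 and -0.91 ± 0.22 (limma adjusted p = 0.0203 and 0.0347). The median of the list was -0.06, so most members did not share this. GAL was the only call left in the list without day 8 DMSO replicate 1 or 2, day 8 rotenone replicate 1 or 2 or day 15 DMSO replicate 3. Without day 15 DMSO replicate 1 the list held 2 calls.

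Among 30 matrix and adhesion genes, COL4A2, MCAM, THBS4 and TNC were called lower (1.08% of all genes) and COL5A2 higher (0.980% of all genes). COL5A2, a fibrillar collagen chain, fell by 1.13 on the log2 scale on day 8 and had an interaction of 0.97 ± 0.17 (limma adjusted p = 0.00493). MCAM, a melanoma cell adhesion molecule, rose by 0.97 on day 8 and had an interaction of -0.88 ± 0.13 (adjusted p = 0.00168). Mesenchymal markers were low throughout, with a summed intensity between 144 and 292 and COL3A1 measured in no group.

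Hypoxia-inducible factor targets AK4, ANKRD37 and P4HA2 were called lower, out of 19, where 1.08% of all genes were. AK4, a mitochondrial adenylate kinase, had an interaction of -0.65 ± 0.12 (limma adjusted p = 0.00702) with changes of 0.42 and -0.24. ANKRD37 had one of -0.80 ± 0.21 (adjusted p = 0.0495). The list kept 3 calls without day 15 DMSO replicate 1 or day 15 rotenone replicate 2. It held 1 without day 15 rotenone replicate 3, and 2 when any other single array was left out. With the 12 compared arrays alone, or slides 2 and 3 alone, it held 0.

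Of 43 ATF4 targets, 5 were called on day 8 (3.44% of all genes) and PHGDH alone in the interaction (2.06% of all genes), a share near the background. PHGDH, the first enzyme of serine synthesis, read 12.17, 11.67 and 11.86 with DMSO and 11.00, 10.88 and 10.77 with rotenone on day 8. By day 15 PHGDH read 12.25, 12.08 and 11.77 with DMSO and 12.27, 11.91 and 11.84 with rotenone, overlapping. The interaction was 0.99 ± 0.16 (limma adjusted p = 0.00322). CEBPB and GDF15, on the same list, rose on day 8 where PHGDH, ALDH1L2 and SLC6A9 fell.

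In 5 further lists of 22 to 37 genes tested, 1 or 2 genes were called in the interaction, where 2.06% of all genes were. A single call in a list of this size is close to what that share gives, and is no result about the list. The complex I subunit NDUFV3 was lower, at -0.66 ± 0.12 (limma adjusted p = 0.00584), with the median of the 37 subunits at 0.01. The immediate early gene IER5 was higher, at 0.85 ± 0.14 (adjusted p = 0.0027), and the synaptic regulator ARC lower, at -1.16 ± 0.29 (adjusted p = 0.0427). Their list fell from 2 calls to 1 without day 8 DMSO replicate 1 or 2, day 15 DMSO replicate 2 or 3 or day 15 rotenone replicate 1 or 3. It rose to 3 without day 15 DMSO replicate 1 or day 15 rotenone replicate 2. HSPA12A, a distant HSP70 relative, was higher at 0.59 ± 0.12 (adjusted p = 0.0162), just past 1.5-fold, while the median of the 27 heat shock genes was 0.12. HSPA12A came inside 1.5-fold, at 0.52 to 0.58, without day 8 DMSO or rotenone replicate 1 or 2, day 15 DMSO replicate 1 or 3 or day 15 rotenone replicate 3. HRK, a BH3-only apoptosis activator, was lower at -1.20 ± 0.27 (adjusted p = 0.0241), a call lost without day 8 DMSO replicate 1, day 8 rotenone replicate 1 or 2, day 15 DMSO replicate 1 or 2 or day 15 rotenone replicate 2 or 3. FABP3 was the one call among 28 genes of fatty acid binding and oxidation.

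None of the glycolysis, cell cycle, proneural, dopaminergic identity, synaptic vesicle and NRF2 target genes was called in the interaction by limma. SLC16A3, the lactate exporter MCT4, had an interaction of -0.90 ± 0.25 (adjusted p = 0.0637), and it was called under 5 alternatives with the adjusted test. HMOX1, heme oxygenase, rose on day 8 and returned, with an interaction of -0.80 ± 0.31 (adjusted p = 0.21). NHLH1, EN1 and SNAP25 had interactions of -0.55, 0.47 and 0.31 (adjusted p = 0.0515, 0.103 and 0.231), and NHLH1 was called without day 8 DMSO replicate 3 or day 15 DMSO replicate 3. TOP2B, a DNA topoisomerase, had an interaction of 0.52 ± 0.09 (adjusted p = 0.00499), under 1.5-fold.

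At 50 nM for 24 h the same difference of differences called 376 genes (1.76%). Both doses share the DMSO arrays, so their likeness is not independent, and the test between doses uses the rotenone arrays alone. No gene was called between the doses (0.00%) by limma, with a smallest adjusted p of 0.519. An unadjusted p under 0.05 was found for 1050 genes (4.92%), near the share that this threshold gives without any difference. The 50 nM and 100 nM interactions of TXNIP were 2.28 and 2.41, and the interval of their difference ran from -0.29 to 0.54, within 1.5-fold. Those of FABP3 were -2.42 and -2.19, with an interval from -0.31 to 0.77 that reached past it. BDKRB2 had -1.62 and -2.60, with an unadjusted interval of the difference from -1.37 to -0.58, and GAL had -0.66 and -1.48, with one from -1.34 to -0.31. These intervals are not adjusted for the number of genes, and neither difference passed the test over all genes. The genes were named by their 100 nM interactions, and the same rotenone arrays enter the difference between doses. That choice favours a larger interaction at 100 nM, so the intervals are no separate sign of a dose effect.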

How the data were processed

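RNA of 24 samples was hybridised to 1-colour Agilent arrays on 3 slides with 8 groups of 3 arrays, and 12 arrays form the interaction. The deposited scanner files hold intensity values made by the authors with Agilent Feature Extraction, version 11.5.1.1 on slides 1 and 3 and 12.0.0.7 on slide 2 per the file headers. The deposited value table holds the authors' normalized log2 values, and it served as an alternative.

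Median spot and background signals were corrected by normexp with an offset of 0, quantile normalized and put on the log2 scale with limma 3.58.1 in R 4.3.3. Control spots and outlier flags were left out. A spot was kept where it exceeded 1.1 times the 95th percentile of negative controls on 3 arrays or more, and the probes of a gene, named for 30275 of 50599 probes through RefSeq accessions, were averaged. One linear model held all 8 groups with slide as a block, with 14 residual degrees of freedom. A gene was called at a Benjamini-Hochberg adjusted p under 0.05 and over 1.5-fold. Intervals are 95%. Script behaviour was tested on simulated data. The slide block follows the replicate number, since each slide held 1 replicate of every group. Deviations from the group mean correlated at 0.46 in the median between same-numbered arrays, with a lowest value of 0.17, against -0.36 between numbers. Deviations within a group sum to 0, which forces the second value below 0 when the first is above it, so it is no separate contrast.

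Named genes were the 8 largest called interactions in each direction, up to 5 genes in each direction on the opposite side, genes with the larger response on day 15, the gene with the smallest interaction p in each list, and genes of earlier results. The members and the 18 pathway and 9 marker lists were chosen with earlier results of these data known. No explanation was tested. Array number limits precision.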

Additional observations from a re-analysis of the deposited data

Results flagged for a closer look

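The response to 100 nM rotenone differed between day 8 and day 15, by the test of the difference itself, in 439 genes. The values here are log2 interactions of the named genes among them, each past a limma adjusted p of 0.05.

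Higher responses on day 15 were those of TXNIP at 2.41, ARRDC4 at 2.02, SPMIP6 at 2.01, H1-10-AS1 at 1.91, GPR39 at 1.81, PCDH8 at 1.73 and LRRC66 at 1.56. These were followed by HTR5A at 1.55, ESPNL at 1.45, GALR1 at 1.18, EXTL1 at 0.97, CAPN8 at 1.12, LMO2 at 0.92 and GNRH1 at 0.74. The remaining higher responses were PHGDH at 0.99, IER5 at 0.85 and HSPA12A at 0.59.

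Lower responses on day 15 were those of BDKRB2 at -2.60, TNC at -2.43, FABP3 at -2.19, EGFL6 at -2.18, CDC42EP1 at -1.83, PRR5-ARHGAP8 at -1.81 and CACNG1 at -1.76. Next in size or list order came ADGRG4 at -1.65, CILP2 at -1.39, KCNIP4 at -1.62, MESP1 at -0.90, IGIP at -0.67, TSPEAR-AS2 at -0.81 and P4HA2 at -0.97. The remaining lower responses were DHCR7 at -0.62, NDUFV3 at -0.66, TGFB1I1 at -0.83, GAL at -1.48, THBS4 at -1.43 and HRK at -1.20. ADGRG4 was well above background on no day 8 DMSO array, so its value is a fitted difference and no bound.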

How the results depend on the processing

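The 439 interaction calls, 733 day 8 calls, 0 day 15 calls, 514 returned genes, 24 genes on the opposite side and 322 genes whose rotenone arm moved more depended on the setting. With no replicate block and no batch correction these numbers were 87, 412, 0, 297, 12 and 73, while the alternative without the block that corrected slide 1 by ComBat moved none of them by over 1.5 times. With a normexp offset of 50, day 8 calls were 399, day 15 calls 2, returned genes 326 and opposite-side genes 11. Processed signals gave 3 day 15 calls. The 12 compared arrays alone gave 24 interaction calls, 11 opposite-side genes and 19 with the rotenone arm moving more. Slides 2 and 3 alone gave 42 interaction calls, 438 day 8 calls, 1 day 15 call, 320 returned genes and 30 with the rotenone arm moving more. The threshold of unadjusted p under 0.01 gave 757 interaction calls, 179 day 15 calls, 85 dose differences and 550 with the rotenone arm moving more. With 1 array left out, interaction calls ran from 289 to 504, day 8 calls from 614 to 809, day 15 calls from 0 to 17, returned genes from 423 to 589, opposite-side genes from 12 to 47 and rotenone-arm genes from 213 to 378. Dose differences remained at 0 there.

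Scaling to the 75th percentile moved the median interaction of all genes from -0.01 to 0.16. Of genes not called, the sign turned for LCP1 at an offset of 50 (-0.065), for PPP1R27 and CD200 at the 75th percentile (0.019 and 0.0026), for CD200, CCK and GRXCR1 in processed signals (0.28, 0.11 and 0.12) and for FRMPD2 on slides 2 and 3 (-0.14). With 1 array left out, PPP1R27 ran from -0.39 to 0.0013, GDF15 from -0.28 to 0.21, CD200 from -0.60 to 0.030, FRMPD2 from -0.13 to 0.20 and GRXCR1 from -0.29 to 0.0064. Over all pairs of a named gene and an alternative, 1065 kept direction and side of the threshold, 125 lost a call, 9 gained one and 17 turned sign. In deposited values THBS4 had an interaction of -0.44 (limma adjusted p = 0.228). The causes were not tested.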
